A study of Rattus norvegicus with 84 samples.

Results

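Extracellular vesicles (EVs) are membrane particles that cells release with part of their RNA, and those isolated from brain tissue hold transcripts of neurons, glia and vessel cells. The mRNAs of brain-derived EVs were compared between day 31 and day 4 poststroke in the control group, to ask what differs in vesicle content between the chronic and the acute stage. The comparison covered all annotated genes of the mRNA count table, of which 14515 of 18782 had enough counts to be tested, in 6 of the 84 libraries of the series. Each of the 6 libraries came from a different adult male Sprague-Dawley rat labelled wild type, with 3 rats on each day. In all of them the right middle cerebral artery had been occluded for a time and reopened, and saline had been injected into the common carotid artery 3 days after stroke, so that the libraries represent 1 day and 28 days after the injection. EVs were isolated from a small weighed piece of the hemisphere on the side of the stroke, and the makeup of that piece in infarct, border and spared tissue is not known. The same 2 days in rats given human neural stem cells (hNSCs) in place of saline served as a second set of 6 rats, and 3 healthy rats without stroke gave the reference level.

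After an arterial occlusion, in the first days, microglia and invading macrophages clear debris, glia divide, and vessel and scar cells lay down extracellular matrix. Over the following weeks the scar matures, inflammation recedes, and surviving neurons remodel their axons and synapses. Long RNA in EVs is sampled from all of these cells at once, so a level is a share of the vesicle mRNA and not an amount per cell. A lower level can stem from fewer cells of a type, fewer vesicles per cell or less of the mRNA per vesicle, and these cannot be told apart here.

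Between day 4 and day 31, the growth factor gene Igf2, 3 microtubule genes, the synaptic vesicle gene Syp and the chaperone gene Hsp90ab1 rose. Over the same interval, 5 collagen genes, 2 linker histone genes, the matrix gene Ncan and, of 27 tested myelin genes, Mbp and Bcas1 were called lower. In the edgeR quasi-likelihood test with Benjamini-Hochberg adjustment, 17 genes were called higher on day 31 (0.117% of the tested genes) and 19 were called lower (0.131%), 36 in all (0.248%), where a call needed an adjusted p under 0.05 and a change of more than 1.5-fold. Without the adjustment, 937 genes (6.46%) were higher and 429 (2.96%) lower at p under 0.05 and the same fold. The libraries of the 2 days did not overlap for 2768 genes with higher values on day 31 (19.1%) and for 1465 genes with lower values (10.1%). The median log2 fold change over all tested genes was 0.11. The test estimated the spread from all 21 brain mRNA libraries of the series, and the same test on the 6 control libraries alone, where the common dispersion was 0.311 in place of 0.712, called 582 genes higher (4.15% of 14019) and 307 lower (2.19%). These included all 36. With 1 library left out at a time, the test on all groups called 0 to 5 genes higher and 1 to 12 lower, so that the number of calls rested on each of the 6 libraries. Values are given as CPM, the counts of a gene scaled to a common total of annotated counts with TMM factors, and fold changes as log2 of day 31 over day 4 with the standard error (SE) of the fit.

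**Figure D1:**
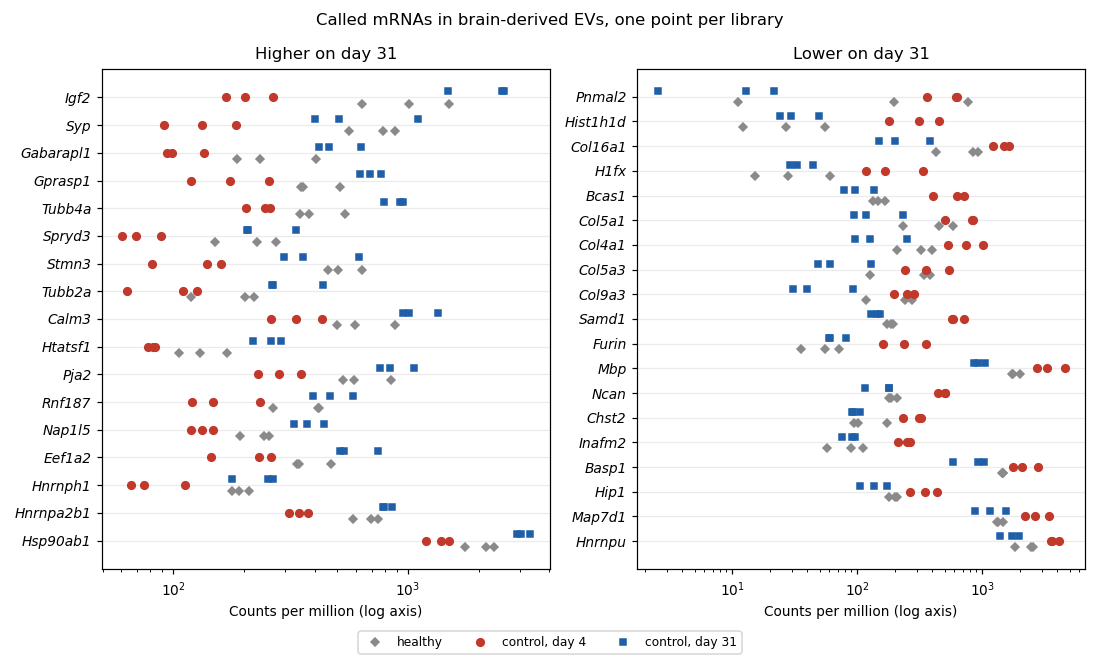
CPM on a log axis of the 17 mRNAs called higher (left) and the 19 called lower (right) on day 31, with 1 point for each library of the healthy group, the control group on day 4 and the control group on day 31 (3 libraries each). For every one of the 36 mRNAs the day 4 and day 31 points do not overlap, and the mean of the healthy points lies between the means of both days for 15 of the 17 and 15 of the 19. The 36 were called for a gap between these 2 days.

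The libraries of the 2 days differed in more than these genes. Counts on annotated genes numbered 3428151 to 6105035 on day 4 and 6379318 to 15587216 on day 31, which was 22% to 25.3% and 30.3% to 43% of all counts in the table. Genes with a count numbered 12631 to 13152 and 15074 to 16116. Scaled down to the 3428151 annotated counts of the smallest library, the expected numbers were still 12603 to 13098 and 14992 to 15856. Log2 CPM correlated across genes at 0.789 to 0.801 between day 4 libraries, at 0.933 to 0.949 between day 31 libraries and at 0.772 to 0.831 between days. With the annotated share of each library as a covariate, 0 genes were called in either direction and the median of all genes was -0.25, while list medians were -1.83 for collagen chains, -2.38 for histone genes and 0.71 for presynaptic genes, beside -1.54, -1.82 and 0.58 without it. The part of depth and annotated share in the results was not tested beyond this fit. Markers of the labelled tissue were present, among them Map1b (4028 to 5835 CPM over the 6 libraries), Gfap (2715 to 4120 CPM) and Apoe (2595 to 7559 CPM), which are genes of neurons, astrocytes and lipid-carrying glia. T and NK cell genes were largely missing, with 17 of 26 at 0 in all 6 libraries. So were neutrophil genes, with 10 of 15 at 0. Of 16 liver genes 9 were at 0, but the summed level of that list was not low. It was 517, 652 and 697 CPM on day 4 and 422, 680 and 430 CPM on day 31.

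Igf2 had the largest change among the mRNAs that rose. It encodes insulin-like growth factor 2, an imprinted growth factor made in the brain chiefly by the choroid plexus, meninges and vessels. It stood at 265.5, 168.5 and 203 CPM in the day 4 libraries and at 2559, 2507 and 1486 CPM in the day 31 libraries, a 10.3-fold change (log2 fold change 3.36 ± 0.52, adjusted p = 0.00628). All day 31 libraries lay far above all day 4 libraries. The healthy libraries spread from 640 to 1496 CPM and those of day 10 had a mean of 1434 CPM, so that the day 4 libraries were the lowest of the time course. Of 14 tested choroid plexus genes none was called, and 3 were at 0 in all day 4 libraries. The median of the 14 was 0.53, and 11 had a positive value, beside 56.1% of all tested genes. Of these 14, 3 were higher and 0 lower without overlap, beside 19.1% and 10.1% of all tested genes. Their summed level was 731, 310 and 216 CPM on day 4 and 525, 693 and 394 CPM on day 31. Ttr, the transthyretin gene that choroid plexus expresses most strongly, had 165, 42.0 and 11.3 CPM on day 4 and 101.5, 211 and 106 CPM on day 31 (log2 fold change 0.94 ± 0.67, adjusted p = 0.988).

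In the neuronal cytoskeleton and presynaptic lists, 3 microtubule genes and 1 synaptic vesicle gene were called. Tubb4a, a beta-tubulin abundant in brain, had 204, 258 and 246 CPM on day 4 and 949, 790 and 927 CPM on day 31 (log2 fold change 1.91 ± 0.32, adjusted p = 0.0124). Tubb2a, another beta-tubulin, rose 3.22-fold and Stmn3, a stathmin that binds tubulin in neurons, rose 3.34-fold (adjusted p = 0.0498 and 0.0480). Tubulin genes are near-identical in parts, so the division of reads between them is uncertain. Syp, which encodes the synaptic vesicle protein synaptophysin, rose from 91.3, 132.5 and 186 CPM to 507, 401 and 1100 CPM (log2 fold change 2.29 ± 0.47, adjusted p = 0.0350). The highest day 4 library stayed below the lowest day 31 library for each of these genes. Calm3, 1 of the genes for the calcium sensor calmodulin, rose 3.21-fold (adjusted p = 0.0296).

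The other mRNAs that rose have varied roles. Gabarapl1, an ATG8-family protein of the autophagosome membrane, had 94.4, 99.2 and 135 CPM on day 4 and 462.5, 418 and 631 CPM on day 31 (log2 fold change 2.20 ± 0.42, adjusted p = 0.0285). Gprasp1, which directs receptors to lysosomes, rose from 119, 175 and 255.5 CPM to 690, 623 and 765 CPM (log2 fold change 1.92 ± 0.31, adjusted p = 0.0109). The ubiquitin ligase genes Pja2 and Rnf187 rose by 1.63 and 1.53 on the log2 scale. Hsp90ab1, the constitutive cytosolic HSP90 chaperone, had the highest CPM of the mRNAs called higher, at 1494, 1192 and 1385 CPM on day 4 against 2919, 3023 and 3303 CPM on day 31 (log2 fold change 1.18 ± 0.23, adjusted p = 0.0285). Its 3 libraries of each day lay close together, 2.27-fold apart.

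Hnrnpa2b1, a ribonucleoprotein that is also known for loading RNA into vesicles, rose from 342, 311 and 375 CPM to 786, 790 and 855 CPM (log2 fold change 1.24 ± 0.23, adjusted p = 0.0256). Hnrnph1, a splicing regulator, rose by 1.46, and Htatsf1, a factor of transcription elongation and splicing, by 1.65 on the log2 scale. Eef1a2, the translation elongation factor form of neurons and muscle, rose 2.81-fold, and the imprinted gene Nap1l5, a relative of nucleosome assembly proteins, rose 2.85-fold. Spryd3 completed the 17, with a log2 fold change of 1.77 ± 0.35.

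Of the mRNAs that fell, 5 encode collagen chains. Col16a1, a collagen that associates with fibrils, fell from 1646, 1497 and 1217 CPM to 149, 385 and 200 CPM (log2 fold change -2.57 ± 0.40, adjusted p = 0.00628). Col5a1, a chain of the type V collagen that starts fibrils, had 848, 837 and 506 CPM on day 4 and 93.9, 234.5 and 118 CPM on day 31 (log2 fold change -2.30 ± 0.41, adjusted p = 0.0179). Col4a1, of the basement membranes around vessels, fell from 1009, 743 and 535 CPM to 95.4, 249 and 127 CPM (log2 fold change -2.28 ± 0.46, adjusted p = 0.0294). Col5a3 and Col9a3 fell by 2.27 and 2.17 on the log2 scale. In all 5, day 31 replicate 2 was the highest of the day 31 libraries and still lay below each day 4 library.

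Linker histones, which bind DNA between nucleosomes, showed large falls. Hist1h1d fell from 454, 310 and 179 CPM to 29.7, 49.2 and 24.3 CPM, a 9.13-fold change (log2 fold change -3.19 ± 0.57, adjusted p = 0.0179). H1fx had 338, 166 and 118 CPM on day 4 and 29.0, 33.3 and 44.0 CPM on day 31 (log2 fold change -2.55 ± 0.55, adjusted p = 0.0488). Histone genes are near-identical copies, so reads may be divided unevenly among them. Samd1, which encodes a chromatin protein that binds unmethylated CpG islands, had the smallest p of all genes. It stood at 713, 577 and 588 CPM on day 4 and at 130, 145 and 151 CPM on day 31 (log2 fold change -2.14 ± 0.30, adjusted p = 0.00365). Leaving out any 1 of the 6 libraries kept this call, which held for no other of the 36 genes. The call was lost with the annotated share as a covariate and on the FPKM scale described below. Over the alternative settings the log2 fold change of Samd1 ran from -2.20 to -0.94.

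A few myelin and matrix genes of the neuropil were called lower as well. Mbp and Bcas1 were the 2 called of 27 tested myelin genes, of which 10 had a positive and 17 a negative value. The median of the 27 was -0.27. Neither of these 2 calls was kept with any 1 of the 6 libraries left out. Mbp, the myelin basic protein gene, fell from 4584, 3307 and 2733 CPM to 862, 1046 and 920 CPM (log2 fold change -1.91 ± 0.40, adjusted p = 0.0435). Bcas1, a marker of oligodendrocytes that have begun to myelinate, fell from 716, 405 and 629 CPM to 96.5, 137 and 79.0 CPM (log2 fold change -2.48 ± 0.48, adjusted p = 0.0285). Ncan, the chondroitin sulfate proteoglycan neurocan that surrounds neurons, fell 3.08-fold with day 4 libraries of 504, 444 and 505 CPM and day 31 libraries of 115, 178 and 178 CPM (adjusted p = 0.0124). Chst2, a sulfotransferase for such sugar chains, fell by 1.58 on the log2 scale.

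The remaining mRNAs called lower have varied roles. Pnmal2, named Pnma8b in RefSeq and related to the paraneoplastic Ma antigens, showed the largest change among the called mRNAs, from 617, 629 and 361 CPM to 2.53, 21.8 and 12.9 CPM (log2 fold change -5.45 ± 0.94, adjusted p = 0.0138). Its healthy libraries were spread widely, at 768, 11.1 and 197 CPM. Basp1, a membrane protein of growth cones, fell from 1765, 2100 and 2775 CPM to 579, 924 and 1027 CPM (log2 fold change -1.39 ± 0.26, adjusted p = 0.0285). Furin, a protease that cleaves proproteins, and Hip1, an endocytic adaptor, fell by 1.91 and 1.34 on the log2 scale. Map7d1, which binds microtubules, and Inafm2 fell by 1.21 and 1.47.

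Hnrnpu, a nuclear scaffold and RNA-binding protein, changed sign with the scale. Per annotated count it fell from 4121, 3640 and 3547 CPM to 1381, 1962 and 1727 CPM (log2 fold change -1.16 ± 0.22, adjusted p = 0.0285). On the FPKM scale deposited beside the counts, which was not scaled to annotated genes, its mean was 29.4 on day 4 and 36.6 on day 31, and its log2 fold change was 0.25. On log2(FPKM + 1), the median of all 7252 genes with a mean FPKM of 0.5 or more was 0.70 higher on day 31, and 3618 genes were called higher against 35 lower. All 17 mRNAs called higher on counts were also called higher there. Of the 19 called lower, 7 were called lower there, and Samd1 was not among them. Directions are therefore given relative to the bulk of annotated mRNA.

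Sequences upstream of the called genes differed in base composition. RefSeq promoters of the GRCr8 build, covering 250 bases before and 50 after a gene's start, were found for 15 of the 17 genes called higher and 15 of the 19 called lower. Their median GC content was 61.7% (55.7% to 69.3%) for the former and 72.0% (61.7% to 78.3%) for the latter, beside 61.0% for 10843 tested genes with a promoter. The motif GGGCGG, the GC box on either strand, occurred in 13 of 15 and in 15 of 15 of them, in 62.1% of the tested genes' promoters and in 34.9% of all 27457 promoters. The motif was picked for display after the calls were known. When tested genes were divided into 4 sets of like size by promoter GC, the sets held 0, 7, 7 and 1 genes called higher and 0, 0, 4 and 11 called lower, from the lowest to the highest GC. The median log2 fold change was 0.21 in the lowest set and -0.0019 in the highest. Among genes with a mean CPM of at least 20, which held the same calls, the medians differed less. From the lowest to the highest set they were 0.0485, 0.07, 0.0478 and -0.0568. The GC ranges of the genes called higher and lower overlapped. Promoters of Igf2 and Syp, which rose, and of Samd1 and Col4a1, which fell, were picked as examples. Matches to GGGCGG or its reverse complement CCGCCC are in capitals. They lie at chr1:207253931-207254230 on the minus strand, chrX:17536400-17536699 on the minus strand, chr19:41059146-41059445 on the minus strand and chr16:84885347-84885646 on the plus strand.
Igf2: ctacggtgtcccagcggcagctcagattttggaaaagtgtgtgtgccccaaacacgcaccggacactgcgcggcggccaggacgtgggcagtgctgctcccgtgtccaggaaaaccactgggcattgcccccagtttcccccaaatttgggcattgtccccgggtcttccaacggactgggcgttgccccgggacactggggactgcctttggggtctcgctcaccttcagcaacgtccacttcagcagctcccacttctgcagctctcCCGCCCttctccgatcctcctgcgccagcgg
Syp: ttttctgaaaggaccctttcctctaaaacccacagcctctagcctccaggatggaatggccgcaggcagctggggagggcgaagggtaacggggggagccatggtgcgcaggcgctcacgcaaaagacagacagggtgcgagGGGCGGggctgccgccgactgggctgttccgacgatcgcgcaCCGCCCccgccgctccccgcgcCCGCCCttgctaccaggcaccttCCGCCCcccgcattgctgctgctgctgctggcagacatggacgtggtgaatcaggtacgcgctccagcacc
Samd1: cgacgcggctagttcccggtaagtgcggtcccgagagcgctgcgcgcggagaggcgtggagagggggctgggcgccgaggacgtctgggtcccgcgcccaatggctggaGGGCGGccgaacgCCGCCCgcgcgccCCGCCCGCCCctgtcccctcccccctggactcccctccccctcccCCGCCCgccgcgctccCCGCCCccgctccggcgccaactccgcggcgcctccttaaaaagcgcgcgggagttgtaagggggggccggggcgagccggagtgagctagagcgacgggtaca
Col4a1: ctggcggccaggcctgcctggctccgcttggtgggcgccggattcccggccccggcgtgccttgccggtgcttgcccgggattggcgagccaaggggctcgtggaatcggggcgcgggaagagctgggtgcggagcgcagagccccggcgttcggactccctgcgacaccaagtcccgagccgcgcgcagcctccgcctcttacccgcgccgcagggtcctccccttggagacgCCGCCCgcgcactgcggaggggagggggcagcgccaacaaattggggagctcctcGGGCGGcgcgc
The promoters of Igf2 and Syp hold 63.3% and 67.0% GC with 1 and 4 matches. Those of Samd1 and Col4a1 hold 77% and 75% with 6 and 2 matches, and lie high in the range of the genes called lower. The number of matches did not divide these examples by direction.

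Collagen and scar genes were lower on day 31 as a group. In the list of extracellular matrix and scar genes, 33 of 33 were tested, 2 were called lower (Col5a1 and Col4a1) and none higher, and the groups did not overlap for 19 lower and 0 higher genes, beside 10.1% and 19.1% of all tested genes. Its median log2 fold change was -1.25, and 31 of 33 members had a negative value, beside 43.9% of all tested genes. On log2(FPKM + 1) the median was -0.06, against 0.70 for all genes. Of 42 collagen chain genes, grouped after values were seen, 5 were called lower and none higher, with a median of -1.54 on counts and -0.51 on FPKM. Col6a2 of the type VI collagen of vessel walls, named after its values were seen, had 548, 544 and 462.5 CPM on day 4 and 91.5, 191 and 62.1 CPM on day 31 (adjusted p = 0.0760). The main fibrillar chain differed less, with 697, 446 and 344 CPM against 229, 274 and 122 CPM for Col1a1 of type I collagen (log2 fold change -1.25 ± 0.62, adjusted p = 0.550), also named after its values were seen. In the fit of the 6 libraries alone, 10 of 32 matrix and scar genes and 16 of 40 collagen chains were called lower, and 0 and 1 higher. Over all genes of that fit, 2.19% were called lower and 4.15% higher. The vessel-wall lists were less uniform, with medians of -0.18 over 22 endothelial genes and -0.59 over 13 pericyte and smooth muscle genes and no call in either.

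**Figure D2:**
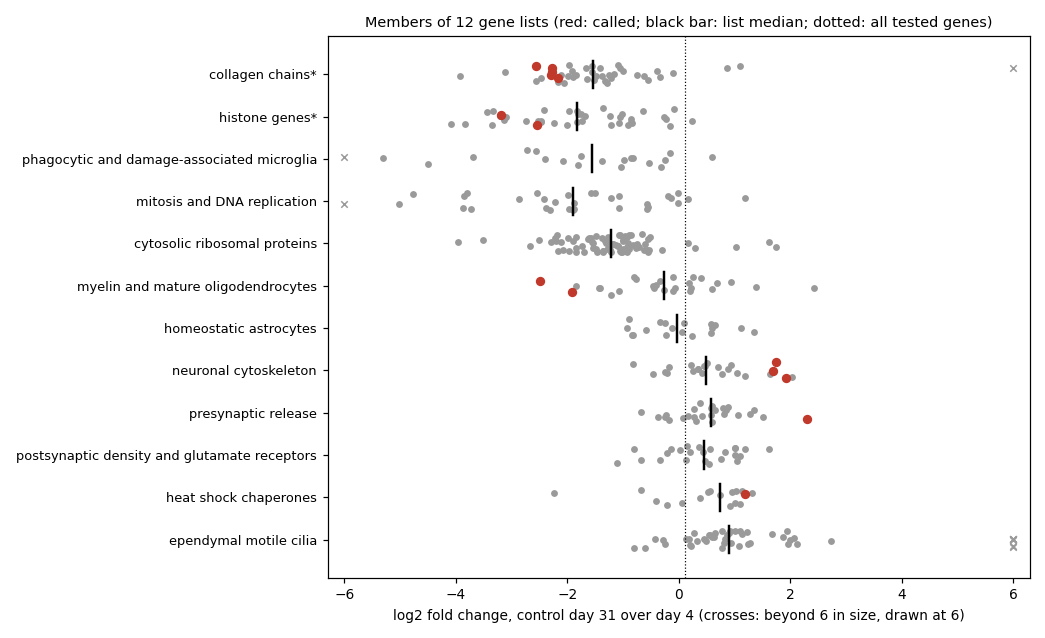
Log2 fold changes, control day 31 over day 4, of the members of 12 gene lists (1 point per gene, red where called, black bar for the list median, dotted line for the median of all tested genes, crosses for values beyond 6 in size). Collagen and histone genes lie almost wholly to the left of the dotted line, and microtubule, synaptic and chaperone genes mostly to the right, with few called genes in any list.

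Genes of dividing cells and of phagocytes were lower by level, and none of them passed the test. Among 32 genes of mitosis and DNA replication, 30 had a negative log2 fold change, beside 43.9% of all tested genes. Of the 32, 10 were lower and 0 higher without overlap, beside 10.1% and 19.1% of all tested genes. The median of the list was -1.89. Mki67, the proliferation marker, had 237, 137 and 118.5 CPM on day 4 and 15.4, 15.1 and 6.78 CPM on day 31 (log2 fold change -3.72 ± 1.03, adjusted p = 0.192). The 40 tested histone genes, grouped after values were seen, included the 2 called lower and 39 negative values, beside 43.9% of all tested genes. Their median was -1.82 on counts and -0.50 on FPKM. Of 20 genes of phagocytic microglia, 19 had a negative value, beside 43.9% of all tested genes, with a median of -1.56. Spp1, the osteopontin gene that such cells express strongly, had 719, 789 and 495 CPM on day 4 and 18.2, 28.9 and 3.15 CPM on day 31 and was 0 in each healthy library (log2 fold change -5.31 ± 1.25, adjusted p = 0.0837). C1qc, a complement subunit of microglia, had 319, 212 and 113 CPM against 37.7, 44.1 and 7.41 CPM (adjusted p = 0.227). In the fit of the 6 libraries alone, 6 of 26 mitosis genes, 8 of 34 histone genes and 7 of 18 phagocyte genes were called lower. None of the 3 lists had a gene called higher. Over all genes of that fit, 2.19% were called lower and 4.15% higher.

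Apoe, the main lipid carrier of glia, differed less, with 7559, 4615 and 3494 CPM on day 4 and 3282, 4887 and 2595 CPM on day 31 (adjusted p = 1). Genes of homeostatic microglia, of which 10 were tested, had a median of -0.64, and genes of monocytes and border macrophages, also 10, a median of -1.80, with no call in either. Lysosome genes had a median of -0.62 over 32 members. On FPKM the medians of homeostatic microglia and lysosome genes were 0.43 and 0.36, positive but below the 0.70 of all genes. Interferon response genes lay on the other side, with a median of 0.76 over 27 members, of which 9 were higher without overlap, beside 19.1% of all tested genes, and none was called.

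Cytosolic ribosomal protein genes were mostly lower by level. Of 83 tested, 78 had a negative log2 fold change, beside 43.9% of all tested genes, and the median was -1.22. Without overlap, 40 were lower and 0 higher, beside 10.1% and 19.1% of all tested genes, while none was called. Their summed level was 21400, 14200 and 8390 CPM in the day 4 libraries and 5370, 6590 and 6160 CPM in the day 31 libraries, with 3090 to 4040 CPM in the healthy ones. Every day 4 library exceeded every day 31 library. Rplp0, a stalk protein of the large subunit, had 1490, 1022 and 654 CPM against 209, 348 and 196.5 CPM (log2 fold change -2.07 ± 0.52, adjusted p = 0.108). On FPKM the median of the list was 0.02, below the 0.70 of all genes. In the fit of the 6 libraries alone, 20 of 80 ribosomal protein genes were called lower and none higher, beside 2.19% and 4.15% of all genes. Genes of oxidative phosphorylation and the proteasome had positive medians of 0.40 over 74 members and 0.42 over 37 members, without a call. With the annotated share as a covariate these medians were -0.10 and -0.08 and that of interferon response genes was -0.02, beside -0.25 for all genes. In that fit the medians of ribosomal protein genes and of matrix and scar genes were -1.58 and -1.82, and that of neuronal cytoskeleton genes was 0.595.

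Neuronal lists had positive medians of smaller size. Of 24 neuronal cytoskeleton genes, 3 were called higher and none lower, 12 were higher and 1 lower without overlap, beside 19.1% and 10.1% of all tested genes, and the median was 0.49. Nefm, the medium neurofilament gene, named after its values were seen, had 259.5, 391.9 and 529 CPM on day 4 and 1153, 1709 and 1935 CPM on day 31 (adjusted p = 0.0837). The members with the highest CPM did not pass the test, with log2 fold changes of 0.26 ± 0.27 for Map1b and -0.18 ± 0.27 for Map1a, both microtubule-associated proteins (adjusted p = 1 for both). Of 26 presynaptic genes, Syp was the 1 called, 9 were higher and 1 lower without overlap against the same background of 19.1% and 10.1%, and the median was 0.58. Snap25, of the vesicle fusion complex, had 258, 366 and 534 CPM against 845, 523 and 1043 CPM, and the groups overlapped (adjusted p = 0.427).

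Of 24 postsynaptic genes none was called, 9 were higher and 3 lower without overlap (19.1% and 10.1% of all tested genes), and the median was 0.45. Nrgn, the calmodulin-binding protein neurogranin, had 285, 409.5 and 551 CPM against 798, 740 and 1117 CPM (adjusted p = 0.276). Camk2n1, an inhibitor of CaM kinase II, had 202, 171 and 188 CPM against 317.5, 239 and 572 CPM (adjusted p = 0.292). Ddn, the dendritic protein dendrin, lay the other way, with 1411, 1980 and 1908 CPM on day 4 and 625, 842 and 993 CPM on day 31 (log2 fold change -1.11 ± 0.27, adjusted p = 0.0960). Medium spiny neuron genes had a median of 0.33 over 22 members and interneuron genes a median of 0.39 over 16. On FPKM the cytoskeletal, presynaptic and postsynaptic medians were 1.46, 1.22 and 1.12, above the 0.70 of all genes.

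Glial lists held both directions. Astrocyte genes of the homeostatic state had a median of -0.03 over 18 members, and Gfap, the intermediate filament of astrocytes, was 2812, 2715 and 2865 CPM on day 4 and 3003, 4120 and 2874 CPM on day 31 (adjusted p = 1). Reactive astrocyte genes had a median of -1.08 over 17 members without a call, and on FPKM a median of 0.32. Vim, a filament shared by astrocytes and vessel and immune cells, had 2747, 2059 and 1114 CPM against 806, 875 and 383 CPM (log2 fold change -1.52 ± 0.61, adjusted p = 0.335). Among 27 myelin genes, 2 were called lower, 6 were higher and 6 lower without overlap, beside 19.1% and 10.1% of all tested genes, and the median was -0.27. On FPKM the median of the myelin list was 0.52, against 0.70 for all genes. Oligodendrocyte precursor genes had 12 negative values among 13, beside 43.9% of all tested genes, and a median of -0.74, with no call. S100b and Glul, of astrocytes, had log2 fold changes of 0.57 and -0.93 (adjusted p = 0.686 and 0.276).

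**Figure D3:**
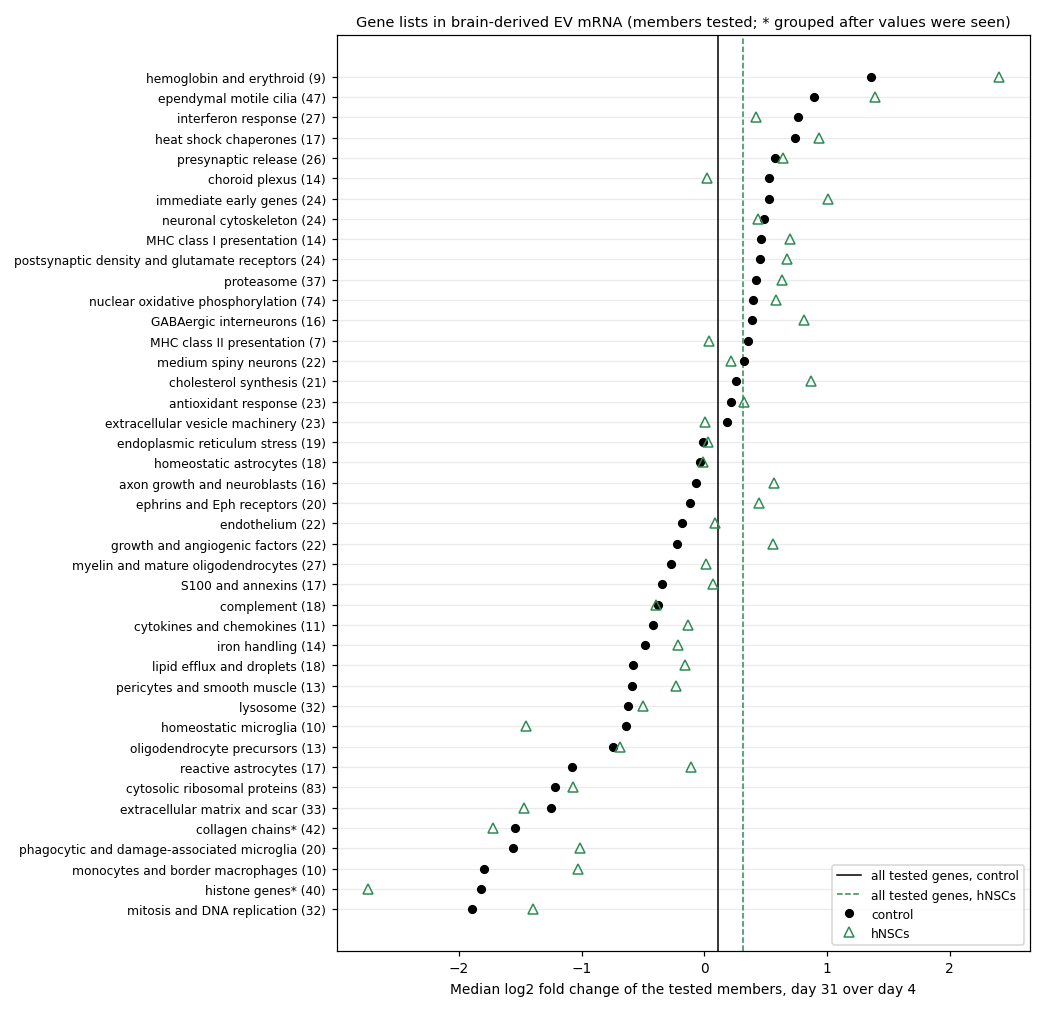
Median log2 fold change, day 31 over day 4, of the tested members of each gene list in the control group (filled circles) and in the hNSCs group (open triangles), with the number of members tested in parentheses and lines at the medians of all tested genes, 0.114 and 0.315. Collagen, histone, mitosis and ribosomal protein lists lie to the left in both groups, and chaperone and motile cilia lists to the right.

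Heat shock chaperones and cilia genes had positive medians. Of 17 chaperone genes, Hsp90ab1 was called higher, 8 were higher and 3 lower without overlap, beside 19.1% and 10.1% of all tested genes, and the median was 0.74. Its stress-induced paralog Hsp90aa1, named after its values were seen, had 551, 522 and 567 CPM on day 4 and 1140, 985 and 1194 CPM on day 31 (log2 fold change 1.02 ± 0.25, adjusted p = 0.104). Hspa1a, the inducible HSP70 gene, also named after its values were seen, lay the other way, with 299, 114 and 129 CPM against 53.9, 34.9 and 26.02 CPM (log2 fold change -2.24 ± 0.62, adjusted p = 0.192). Genes of ependymal motile cilia had 42 positive values among 47, beside 56.1% of all tested genes, and a median of 0.90. Of the 47, 12 were higher and 0 lower without overlap, and none was called. Their share higher without overlap lay near the 19.1% of all tested genes. Dnah9, a dynein of these cilia, had 113, 141 and 160 CPM against 215, 326 and 110 CPM, and the groups overlapped (adjusted p = 1).

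Red cell transcripts were present at low levels. Hba2 had 66.1, 118.5 and 69.5 CPM on day 4 and 239, 208 and 203 CPM on day 31 (log2 fold change 1.36 ± 0.36, adjusted p = 0.145). Hba1 is nearly identical to it, so that their separate values are uncertain, and stood at 64.2, 50.6 and 3.25 CPM against 197, 228 and 175 CPM (adjusted p = 0.171). The 9 tested genes of the red cell list had a median of 1.36 and no call.

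Rats given hNSCs, which shared no library with the control group, provided the same interval in other animals. There, 71 genes were called higher on day 31 (0.489%) and 99 lower (0.682%), which made 170 in all (1.17%), with a median of 0.32 over all tested genes. Without the adjustment these numbers were 1750 (12.1%) and 705 (4.86%). All 36 genes called in the control group had the same sign, 33 of them were called (14 higher and 19 lower), and none was called in the opposite direction. Their libraries did not overlap between the days for 35 of the 36, beside 26.3% of all tested genes for higher and 8.97% for lower values, the exception being Stmn3 with 352, 317 and 146 CPM on day 4 and 283, 440 and 585 CPM on day 31. Day 4 replicate 1 of this group stood apart, with 1847441 annotated counts and 8828 genes with a count. Without it, all 36 kept their sign and 35 again did not overlap, while the calls over all genes fell to 21 higher and 51 lower. Depth and annotated share differed between the days in this group as well. Annotated counts numbered 1847441 to 3746015 on day 4 and 8332035 to 15557408 on day 31, which was 10.6% to 20.6% and 29.9% to 51.9% of all counts. Their part in the likeness of the 2 groups was not tested.

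Sizes of change in the arms were close for some genes and apart for others. Samd1 had 959, 1032 and 558 CPM on day 4 and 122, 151 and 127 CPM on day 31 in hNSCs rats, a log2 fold change of -2.67 beside -2.14 in the control group. Hist1h1d had 281, 586 and 504 CPM against 25.5, 29.3 and 28.4 CPM, and Mbp 2856, 3206 and 3661 CPM against 783, 1052 and 844 CPM. Gprasp1 had 160, 133 and 165 CPM against 605, 614 and 674 CPM. List medians in the hNSCs group were -1.47 for matrix and scar genes, -2.74 for histone genes, -1.07 for ribosomal protein genes, 0.44 for neuronal cytoskeleton genes and 0.94 for chaperones. Other list medians lay apart, with -0.11 in the hNSCs group beside -1.08 in the control group for reactive astrocyte genes. They were 0.56 beside -0.22 for growth and angiogenic factors and 0.57 beside -0.07 for axon growth and neuroblast genes. The summed level of the axon growth and neuroblast list nevertheless fell in both arms. In the control group it went from 4420, 4180 and 3990 CPM to 1650, 2020 and 2210 CPM. In the hNSCs group it was 5130 to 6600 CPM on day 4 and 1620 to 2060 CPM on day 31, with 2 members called lower and 0 higher. Stmn3 had a log2 fold change of 0.68 beside 1.74 (unadjusted p = 0.0506 for the difference, edgeR adjusted p = 1). Averaged over both arms, a summary chosen after seeing the data that sets 6 libraries against 6, 670 genes were called higher (4.62%) and 389 lower (2.68%), 1059 in all (7.30%), among them all 36. This average called 11 matrix and scar genes, 10 histone genes and 11 ribosomal protein genes lower, and 6 presynaptic and 9 postsynaptic genes higher, with 0 and 3 of these 2 lists lower.

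**Figure D4:**
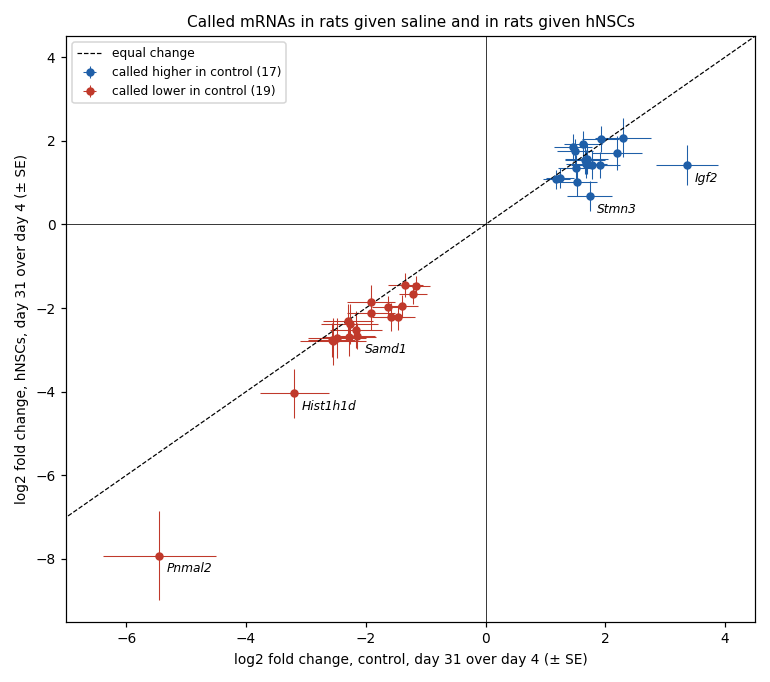
Log2 fold change, day 31 over day 4, of the 36 mRNAs called in the control group (horizontal axis) against the same interval in the hNSCs group (vertical axis), with bars of 1 SE and a dashed line of equal change. All points lie in the lower left or upper right quadrant, and Igf2 lies farthest below the line among the mRNAs called higher.

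The difference between the arms was itself tested, and 0 genes were called (smallest adjusted p = 0.469). At an unadjusted p under 0.05 and 1.5-fold, 464 genes (3.20%) differed upward and 150 (1.03%) downward, and DESeq2 called 86 and 26. Of the 36 genes, 2 had an unadjusted p under 0.05 for the difference. Igf2 had 968, 970 and 212 CPM on day 4 and 2220, 2470 and 1083 CPM on day 31 in hNSCs rats, where its log2 fold change was 1.43 (adjusted p = 0.151), a difference of -1.94 ± 0.67 from the control group (unadjusted p = 0.00855, adjusted p = 1). Pnmal2 fell by 7.92 on the log2 scale in hNSCs rats, a difference of -2.47 ± 1.15 (unadjusted p = 0.0426, adjusted p = 1). The changes in the arms were therefore not shown to differ, and the SE of these differences leaves room for sizeable ones.

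**Figure D5:**
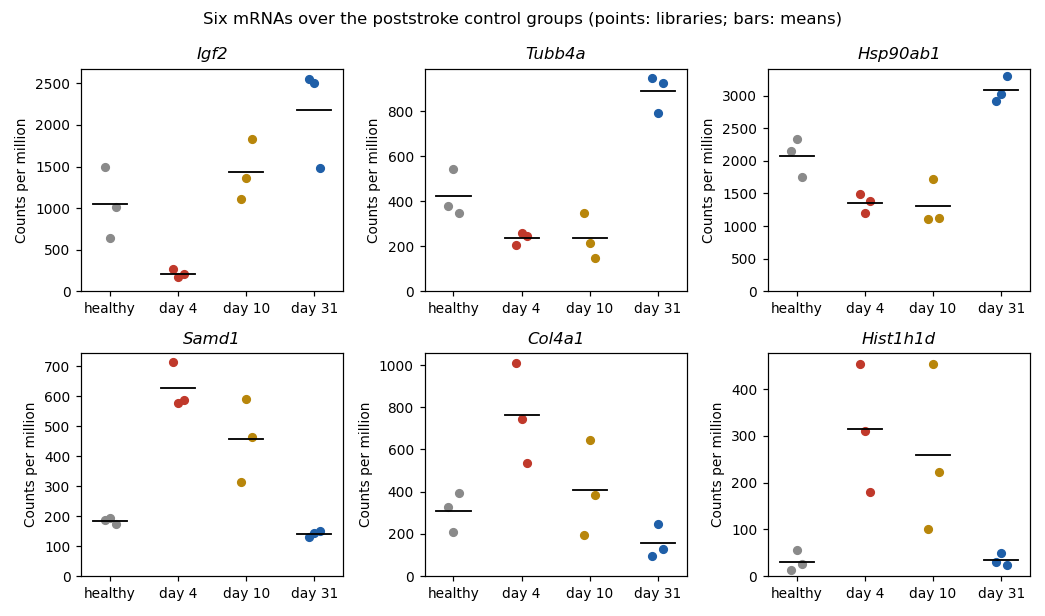
CPM of 6 of the called mRNAs in healthy rats and, for the control group, on days 4, 10 and 31 poststroke, with 1 point for each of 3 libraries per group and a bar at the mean. Igf2 is lowest on day 4 and at 1110 CPM or more in every library of day 10 and day 31, while Samd1, Col4a1 and Hist1h1d are low in healthy rats, high on day 4 and low again on day 31.

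Set beside healthy rats, as levels only and without a test, most called mRNAs had a healthy mean between those of day 4 and day 31. Annotated counts numbered 1403190 to 4498193 in the healthy libraries and 1500439 to 2317700 in those of day 10. They made up 7.11% to 20.9% and 11.3% to 13.4% of all counts, below every control library of day 4 and day 31. The part of this in the levels was not tested. The healthy mean lay between the means of day 4 and day 31 for 15 of the 17 mRNAs that rose and for 15 of the 19 that fell. These mRNAs were called for a gap between the same 2 days, which favors a healthy mean inside it. The share over all tested genes was not counted. The healthy mean lay beyond the day 31 mean for Syp and Stmn3 and for Furin, H1fx, Hist1h1d and Inafm2. Tubb4a, at 348 to 541 CPM in healthy rats, and Hsp90ab1, at 1746 to 2329 CPM, were higher on day 31 than in any healthy library. Col16a1, at 427 to 918 CPM in healthy rats, and Mbp, at 1749 to 2004 CPM, were lower on day 31 than in any healthy library. Samd1 stood at 173 to 192.5 CPM in healthy rats, just above its 130 to 151 CPM on day 31, and still at 313, 592 and 462 CPM on day 10. Hist1h1d was similar, at 12.2 to 54.9 CPM in healthy rats and 101.4, 454 and 223.5 CPM on day 10. Hsp90ab1, at 1100, 1719 and 1123 CPM on day 10, and Tubb4a, at 349, 213 and 150 CPM, still had day 10 libraries on either side of their day 4 means, whereas all day 10 libraries of Igf2 lay above all of day 4, with 1110, 1362 and 1829 CPM.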

How the data were processed

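EV RNA was sequenced from rat brain with a stranded total RNA kit, in 21 libraries of 7 groups of 3 rats, and samples were grouped by their labels. The authors aligned reads to the rat build Rnor_6.0 with Bowtie2 and deposited raw read counts for each gene without normalization. The authors also deposited FPKM values computed by StringTie, which divide by transcript length and by mapped reads. Whether counting used strand, and how reads with several matches were handled, is not given in the sources used here, so overlapping genes and near-identical copies are uncertain. No UMIs mark molecules, so low counts carry amplification as well as counting error.

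Counts of annotated genes were analysed here, and 7855 new transcripts in the same table were set aside. Genes were filtered by filterByExpr by group, scaled by TMM and fitted by the edgeR quasi-likelihood test (edgeR 4.0.16, R 4.3.3) in 1 model of the 21 libraries, with contrasts for day 31 against day 4 in the control group, in the hNSCs group and for their difference. Benjamini-Hochberg adjustment ran over all tested genes. DESeq2 1.42.0 and limma 3.58.1 on log2(FPKM + 1) were alternatives. The steps were run on simulated data with less spread than the 21 libraries and larger changes than most calls. That run checked the code and gives no error rate for these data. Named genes were, by rule, up to 12 in each direction with the largest fold change among called genes with no overlap and at least 5 CPM, up to 4 called genes per list or else the 2 with the highest CPM, the 5 highest genes by CPM and a few genes fixed by name. All 36 called genes are given. Gene lists and members were chosen with earlier results of these data known. Promoters are from RefSeq.

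Library totals bound the precision, with 3428151 annotated counts in the smallest of the 6 libraries. The labels name 3 biological replicates per group.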

Additional observations from a re-analysis of the deposited data

How the results depend on the processing

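The number of calls in the control comparison, 17 higher and 19 lower, moved with most settings, given here as higher and lower. DESeq2 called 159 and 108 genes, the fit of the libraries compared alone 582 and 307, an unadjusted p 937 and 429, and a fit that kept new transcripts 8 and 11. Limma on FPKM called 3618 and 35 genes, 405 and 6 with a pseudocount of 0.1, and 3840 higher when any FPKM above 0 was kept. Of all calls, 47.2% were higher in the count fit, 65.5% in the 6 libraries alone, 59.6% with DESeq2 and 99% on FPKM. With the annotated share as a covariate 0 and 0 genes were called, and the median of all genes moved to -0.25. Leaving out each library gave 0 to 5 higher and 1 to 12 lower, with 0 higher without day 4 replicate 1 or replicate 2 and at most 1 in either direction without day 31 replicate 1 or replicate 3. Igf2 kept its call in 4 of these 6 fits, Col16a1 in 3 and Samd1 in 6. Settings chosen after seeing the data were the average of both arms, with 670 and 389 calls, and a fit without the 5 libraries under 2000000 annotated counts, with 52 and 50. Hnrnpu turned from -1.16 to 0.25, 0.2554 and 0.25 in the FPKM fits. RLE factors, no TMM scaling, no filter and no fold limit kept both counts within 1.5 times.

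In the hNSCs group, the same settings gave 550 and 400 calls with DESeq2, 6031 and 20, 5502 and 12, and 7532 and 20 in the FPKM fits, 1032 and 294 in its own libraries, 1750 and 705 unadjusted, 0 and 0 with the covariate, 176 and 147 without the shallow libraries, and 12 to 127 and 16 to 84 with each library left out. The difference between the arms reached 86 and 26 calls with DESeq2, 5 and 0 in its own libraries, 13 and 0 without the shallow libraries, 464 and 150 unadjusted, and 0 to 5 higher with each library left out. The causes were not tested.

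Replicate numbers did not pair the samples, which come from different rats. Same-numbered libraries of the control group deviated from their group means with correlations of 0.0579, 0.0158 and 0.083. Pairs with unlike numbers ran from -0.105 to 0.0622. With a replicate block the counts were 15 and 29 in the control group, 55 and 91 in the hNSCs group and 0 and 0 for the difference.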

Other observations

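Genes listed at 0 were unevenly divided between the days. In the control group, 853 annotated genes had 0 counts in all 3 day 4 libraries and a count in all 3 day 31 libraries, and 1 gene showed the reverse. With at least 5 CPM in each library of the other day these numbers were 85 and 0. A count of 0 in the day 4 group allows up to 3 counts, or 0.213 CPM, by counting error only. Snrpn, an imprinted gene of neuronal splicing that was chosen after its values were seen, was at 0 in each day 4 library. It was at 64.7, 27.3 and 31.1 CPM on day 31, 193-fold above that bound, which leaves out the spread between rats. Its values were 0, 28.1 and 1.69 CPM in the healthy libraries and 3.22, 3.70 and 0 CPM in the hNSCs libraries of day 4. None of the 85 genes was called. A count was present in at least 1 healthy library for 78 of them and in at least 1 hNSCs library of day 4 for 51. Of 7138 genes at 20 CPM or more in each day 31 library, 26, 33 and 29 were at 0 in the day 4 libraries, while of 6218 genes at 20 CPM or more in each day 4 library 1, 0 and 1 were at 0 on day 31.

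Other lists held few or no calls. Among 22 growth and angiogenic factors, Igf2 was the 1 call and the median was -0.22. Among 16 axon growth and neuroblast genes, Basp1 was the 1 call and the median was -0.07. Iron handling genes had a median of -0.48 over 14 members, and Fth1, the ferritin heavy chain, had 2958, 2483 and 1261 CPM on day 4 and 1461, 910 and 730 CPM on day 31 (edgeR adjusted p = 0.441). Immediate early genes had a median of 0.53 over 24 members with none called, and Jun, a transcription factor of that class, had 242, 141 and 173.5 CPM against 130.5, 133 and 128.5 CPM (adjusted p = 1). Ephrins and Eph receptors had a median of -0.12 over 20 members, endoplasmic reticulum stress genes of -0.01 over 19 and antioxidant genes of 0.22 over 23. Prdx6 and Park7, both antioxidant proteins, had log2 fold changes of -0.05 and 0.68 (adjusted p = 1 for both). Vesicle machinery genes had a median of 0.18 over 23 members, with 0.43 for Chmp4b and 0.14 for Hgs, which act in vesicle budding and cargo sorting (adjusted p = 0.971 and 1).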
